A study of Mus musculus with 15 samples.

Results

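*Egr1*, *Egr2*, *Egr3*, *Nr4a1*, *Nr4a2*, *Nr4a3*, *Ier2*, *Ier3* and *Ier5* are 9 immediate-early genes, taken by symbol from the 20089 complete gene entries of the expression table, and all 9 were found and passed the filter on low values that left 11743 genes for testing. Bone marrow-derived macrophages (BMDMs), cultured from the marrow of wild-type C57BL/6 mice in M-CSF, the growth factor that keeps them alive and dividing, were measured by RNA-seq in 5 groups of 3 samples. The groups were Control, with M-CSF alone, and cells given M-CSF with RANKL, the cytokine that drives osteoclast formation, or with lipopolysaccharide (LPS), a bacterial product sensed by macrophages, for 4 h or for 3 d (RANKL 4 h, RANKL 3 d, LPS 4 h and LPS 3 d). RANKL and LPS were used at 100 ng/mL. The series design gives 3 days of M-CSF and the methods 4 days at 50 ng/mL. All 15 samples carried M-CSF and the same wild-type background. The sources do not say whether replicates were separate animals, so the spread between replicates may in part be technical. A control matched in culture time to the 3 d groups was not analysed here, so time under stimulus and time in culture cannot be told apart.

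Immediate-early genes are transcribed within minutes of a stimulus without new protein synthesis, from promoters that carry binding sites for factors already present in the cell, such as serum response factor (SRF) with its ETS partners, CREB and NF-kappaB. The EGR genes encode zinc-finger transcription factors that bind GC-rich sites, and the NR4A genes encode orphan nuclear receptors that act without a known ligand-driven switch and are known in macrophages for restraining inflammatory genes. The IER genes encode small proteins of other kinds, with *Ier3* known as an NF-kappaB target that affects cell survival and *Ier5* as a stress-responsive gene.

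The promoters of the 3 NR4A genes, *Egr2* and *Ier3* are shown so that the motifs of those known inputs can be read beside the expression values, *Nr4a2* for comparison with its relatives. *Egr1*, *Egr3* and *Ier2* are given without a promoter. The promoter table holds 10 windows for 6 of the 9 genes (RefSeq, GRCm38.p6), each 300 bases from 250 before to 50 after a start site and printed 5′ to 3′ on the strand of the gene. Capitals mark matches, on either strand, to the CArG box bound by SRF, to TGACG, the core of the element bound by CREB and ATF factors (CGTCA when it lies on the other strand), to GCGGGGGCG, an EGR site, to an NF-kappaB site of 10 bases, or to the TATA motif TATAAA. The *Nr4a1* window is chr15:101266596-101266895 on the plus strand, the *Nr4a2* window chr2:57123954-57124253 on the minus strand, and the *Nr4a3* window chr4:48045055-48045354 on the plus strand. The *Egr2* window, for start site 4 of the 5 listed, is chr10:67537620-67537919 on the plus strand, and the *Ier3* window is chr17:35821463-35821762 on the plus strand.
Nr4a1: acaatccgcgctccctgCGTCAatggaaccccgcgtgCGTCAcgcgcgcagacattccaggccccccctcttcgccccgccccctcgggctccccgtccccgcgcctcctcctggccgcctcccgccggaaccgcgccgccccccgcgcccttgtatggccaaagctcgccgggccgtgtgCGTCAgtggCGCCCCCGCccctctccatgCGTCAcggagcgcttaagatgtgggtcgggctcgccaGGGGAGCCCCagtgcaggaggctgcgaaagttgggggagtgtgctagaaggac
Nr4a2: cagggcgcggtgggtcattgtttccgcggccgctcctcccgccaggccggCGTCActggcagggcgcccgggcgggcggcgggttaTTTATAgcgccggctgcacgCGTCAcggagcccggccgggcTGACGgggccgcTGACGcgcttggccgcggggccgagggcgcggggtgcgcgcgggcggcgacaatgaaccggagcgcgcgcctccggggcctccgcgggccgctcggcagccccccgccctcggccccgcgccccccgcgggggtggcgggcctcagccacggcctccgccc
Nr4a3: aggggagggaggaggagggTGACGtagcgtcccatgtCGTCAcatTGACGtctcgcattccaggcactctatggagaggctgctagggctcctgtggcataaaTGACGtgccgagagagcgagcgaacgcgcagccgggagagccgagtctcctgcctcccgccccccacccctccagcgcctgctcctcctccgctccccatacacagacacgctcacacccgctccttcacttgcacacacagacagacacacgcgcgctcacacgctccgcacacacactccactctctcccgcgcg
Egr2: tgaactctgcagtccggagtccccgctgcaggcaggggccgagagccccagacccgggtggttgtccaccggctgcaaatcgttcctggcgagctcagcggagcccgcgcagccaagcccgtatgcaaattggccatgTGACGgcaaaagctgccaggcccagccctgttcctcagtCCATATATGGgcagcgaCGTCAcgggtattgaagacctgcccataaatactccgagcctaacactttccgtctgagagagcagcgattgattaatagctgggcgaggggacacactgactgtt
Ier3: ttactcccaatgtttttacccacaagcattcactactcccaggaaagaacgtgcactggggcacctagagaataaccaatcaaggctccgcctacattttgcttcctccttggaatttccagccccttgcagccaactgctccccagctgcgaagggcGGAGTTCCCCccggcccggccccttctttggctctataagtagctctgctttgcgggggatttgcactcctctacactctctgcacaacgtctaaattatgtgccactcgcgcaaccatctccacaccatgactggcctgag

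Each of the 3 NR4A windows held 4 matches to TGACG, a motif found at least once in 20.8% of the 32851 promoter windows of the table. The share of windows with 4 matches was not counted. The *Nr4a1* window held in addition GCGGGGGCG, present in 2.91% of all windows, and an NF-kappaB site beginning 3 bases before the start, and the *Nr4a2* window held TATAAA, present in 13.6%. In the *Egr2* window a CArG box, present in 1.63% of all windows, began 73 bases before the start and lay between 2 matches to TGACG. The overlapping windows of start sites 3 and 5 held the same 3 motifs, the window of start site 2 held another CArG box and no TGACG, and that of start site 1 held neither but 2 overlapping NF-kappaB matches. The *Ier3* window held an NF-kappaB site, present in 8.46% of all windows, beginning 92 bases before the start. The *Ier5* window held no match to any motif searched, which also included TGACGTCA, GCGTGGGCG, AAAGGTCA and TGANTCA. A match describes the letters only, and occupancy of these sites was not measured.

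The expression of each gene was deposited as FPKM, a level in fragments scaled to the length of the transcript and to the depth of the library. Fragments on listed genes, recovered from the steps of the FPKM values, numbered 18306184 to 20330207 per sample. All 8 macrophage genes listed (such as *Csf1r* and *Adgre1*) averaged at least 1 FPKM in every group. So did all 6 listed granule genes of neutrophils, so this level does not tell the cell types apart. The listed osteoclast genes summed to 1721 to 5474 FPKM in RANKL 3 d against 155 to 280 in Control, and the listed LPS-response genes to 15438 to 17085 FPKM in LPS 4 h against 265 to 1239. Markers of other cells were present at levels that differed between groups. Granule genes of neutrophils summed to 2160 to 5065 FPKM in Control, 1651 to 3904 in LPS 4 h, 344 to 1510 in RANKL 3 d and 6.89 to 174 in LPS 3 d. Stromal genes summed to 169 to 371 FPKM in Control, 472 to 2147 in RANKL 3 d and 128 to 557 in LPS 3 d.

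On the FPKM scale the 9 genes spanned a wide range of levels. *Ier3*, *Ier5* and *Ier2* were the most abundant, with means over the 15 samples of 59.6, 40.8 and 30.5 FPKM. *Egr1* averaged 4.64 FPKM, *Nr4a1* 2.74 and *Egr2* 1.48, and *Nr4a3*, *Egr3* and *Nr4a2* lay below 1 FPKM with 0.872, 0.416 and 0.366. The depth behind the low values was small, with 5 to 77 fragments per sample for *Egr3* and 29 to 81 for *Nr4a2*, against 1405 to 4510 for *Ier5*. *Nr4a3* varied most between samples, 49.4-fold from 0.102 to 5.02 FPKM, and *Nr4a2* least, 2.67-fold.

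**Figure D1:**
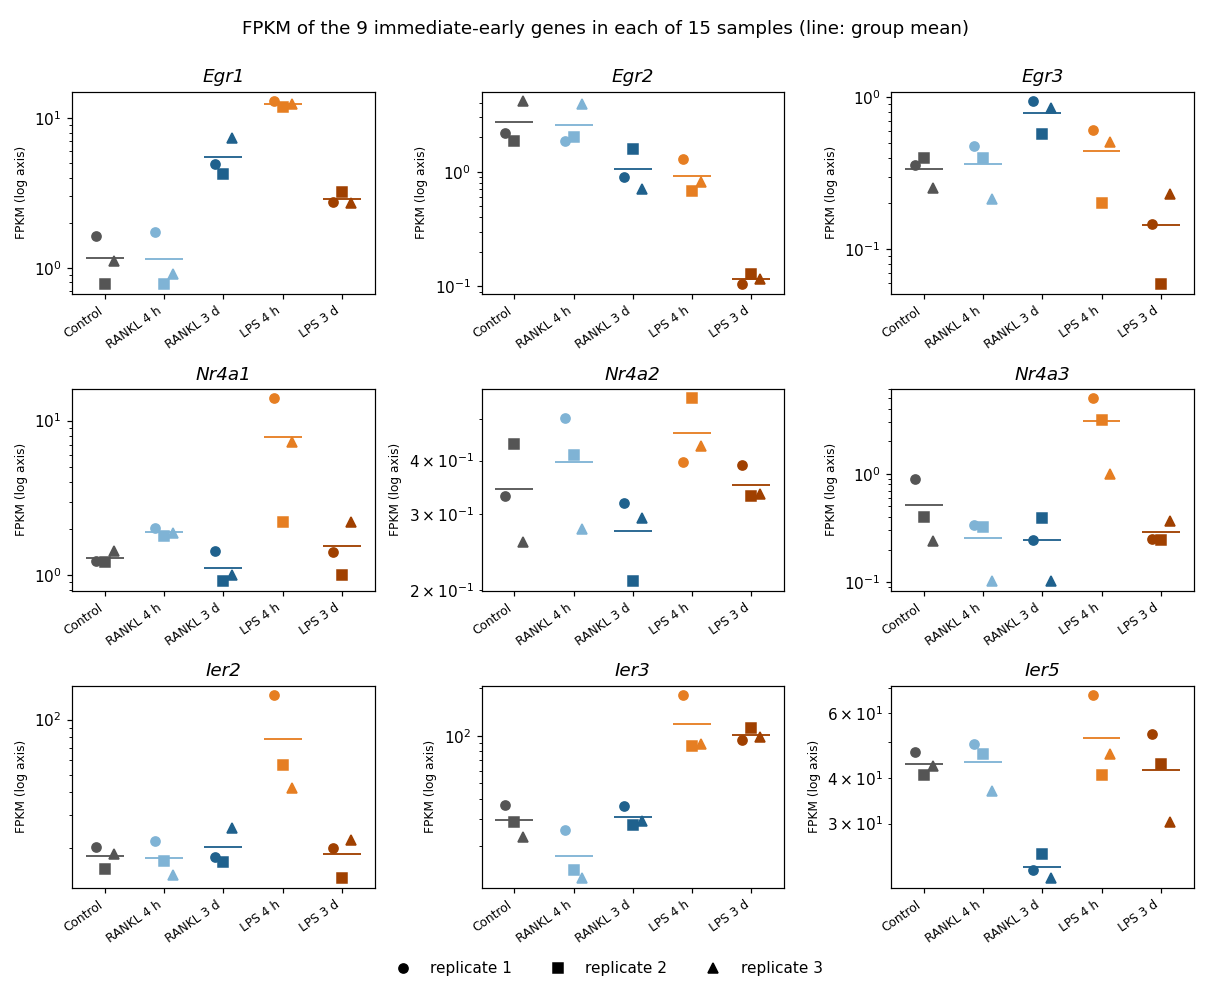
FPKM (log axis) of the 9 genes in each of the 15 samples, by group, with a symbol per replicate and a line at the group mean. *Egr1*, *Nr4a1*, *Nr4a3* and *Ier2* stand highest in LPS 4 h, *Egr3* has its highest mean in RANKL 3 d, and *Egr2* is lowest in LPS 3 d at 0.104 to 0.128 FPKM.

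The first question the design answers is which of the 9 genes differed from Control under each stimulus at each time sampled. The earliest stimulated samples were taken at 4 h, so a change that came and went before then was not measured. The thresholds for a call, in limma on log2(FPKM + 0.1), were an unadjusted p under 0.05 together with a fold above 1.5 or below 0.66, and p-values adjusted by Benjamini-Hochberg over all tested genes are given beside each change. Fold changes are on that log2(FPKM + 0.1) scale, which understates changes of genes near 0. Every called change named here was also compared by a two-sided exact permutation test of 3 samples against 3, whose smallest possible p is 0.1, so that test could not pass 0.05. Its p was 0.1 for every called gene whose groups did not overlap and 0.2 for the 3 called pairs that did. The 4 comparisons with Control share the same 3 control samples. In RANKL 4 h, 1 of the 9 genes and 10.8% of all tested genes did not overlap Control. The figures were 4 and 49.1% in RANKL 3 d, 6 and 66.8% in LPS 4 h, and 4 and 44.1% in LPS 3 d. Between RANKL and LPS they were 6 and 68.2% at 4 h, and 6 and 51.5% at 3 d. Between 3 d and 4 h they were 6 and 49% under RANKL, and 5 and 68% under LPS.

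LPS at 4 h moved 6 of the 9 genes, more than any other group against Control. Of the 9, 5 were higher (*Egr1*, *Nr4a1*, *Nr4a3*, *Ier2* and *Ier3*), against 8.75% of all tested genes, and 1, *Egr2*, was lower, against 41%. The median tested gene fell by 0.52 on the log2 scale in this comparison. When samples were instead centred on their median gene, 17.4% of tested genes were higher and 14.3% lower, the same 6 genes remained called in the same directions, and *Nr4a2* and *Ier5* were also called higher. In these bulk samples fewer cells of a type and less RNA per cell cannot be told apart.

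RANKL at 4 h called 1 of the 9 genes. *Ier3* was lower, against 1.35% of all tested genes, and 0 were higher, against 1.21%, with 0 higher also at an unadjusted p under 0.05 alone in limma and by limma voom on recovered fragments. With the adjusted p in place of the unadjusted one, 0 of the 9 and 0.119% of tested genes were called. The 95% intervals of the log2 difference reached from -0.68 to 0.58 for *Egr1*, from -0.86 to 0.71 for *Egr2*, from -0.50 to 1.54 for *Nr4a1* and from -0.78 to 0.69 for *Ier2*. Each interval rests on the spread of the gene within all 5 groups.

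At 3 d 4 of the 9 genes were called against Control in each stimulated group, where stimulus and time in culture cannot be told apart. In RANKL 3 d, *Egr1* and *Egr3* were higher, against 20.2% of all tested genes, and *Egr2* and *Ier5* were lower, against 9.04%. LPS 3 d had *Egr1* and *Ier3* higher, against 14.9%, and *Egr2* and *Egr3* lower, against 16.1%. The median tested gene was 0.16 higher on the log2 scale in RANKL 3 d, and with samples centred on it 12.7% of tested genes were higher and 14.2% lower, and *Egr3* was no longer called there.

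**Figure D2:**
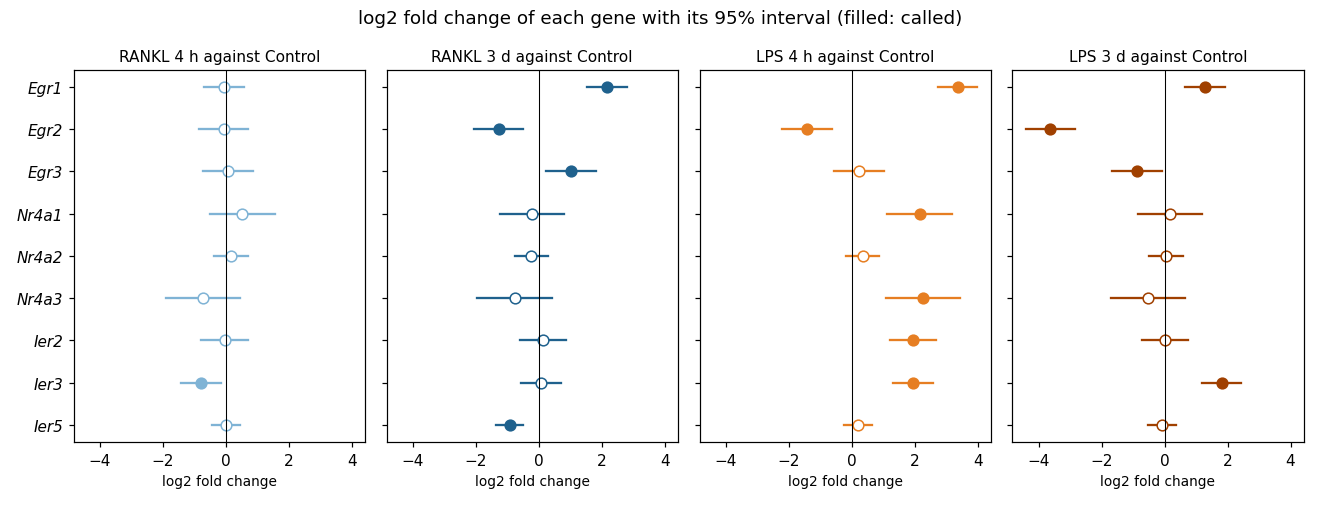
log2 fold change of each gene on the log2(FPKM + 0.1) scale against Control (x axis) in RANKL 4 h, RANKL 3 d, LPS 4 h and LPS 3 d, with the 95% interval as a line and a filled point where the gene was called. LPS 4 h holds 6 filled points, RANKL 3 d and LPS 3 d hold 4 each, and RANKL 4 h holds 1, *Ier3*.

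The 3 EGR genes followed different courses. *Egr1* (chromosome 18, 34859823 to 34864984, plus strand) encodes the founding factor of the family, and rose in every stimulated group except RANKL 4 h. Its FPKM was 1.62, 0.779 and 1.11 in the Control samples, 1.74, 0.776 and 0.916 in RANKL 4 h, and 13.0, 11.8 and 12.5 in LPS 4 h. The LPS 4 h samples lay close together, all far above Control, whereas RANKL 4 h and Control overlapped. By 3 d its FPKM was 4.94, 4.22 and 7.42 under RANKL and 2.74, 3.22 and 2.72 under LPS, with neither group overlapping Control or the other. The order of group means was LPS 4 h, RANKL 3 d, LPS 3 d, Control and RANKL 4 h, and of these neighbours only Control and RANKL 4 h overlapped. The log2 fold change was 3.36 ± 0.29 (SE, n = 3 per group) in LPS 4 h (adjusted p = 7.54e-07), 2.16 ± 0.29 in RANKL 3 d (adjusted p = 0.000175) and 1.29 ± 0.29 in LPS 3 d (adjusted p = 0.00413).

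*Egr2* (chromosome 10, 67535475 to 67542188, plus strand) encodes a factor best known from Schwann cells and lymphocytes and is carried by macrophages as well. It was the only gene of the 9 called lower than Control under LPS at both times, and the window of its start site 4 is shown above. Its FPKM was 2.16, 1.86 and 4.15 in Control, 1.84, 1.99 and 3.87 in RANKL 4 h, and 1.28, 0.679 and 0.811 in LPS 4 h. The third replicate was the highest in Control and in RANKL 4 h, and every LPS 4 h value lay below every Control value. By 3 d it stood at 0.901, 1.56 and 0.701 FPKM under RANKL and at 0.104, 0.128 and 0.116 under LPS. The latter came from 21 to 25 recovered fragments per sample, which may exceed the true number. On the log2 scale *Egr2* fell by 1.42 in LPS 4 h (SE 0.37, adjusted p = 0.00433), fell by 1.27 in RANKL 3 d (SE 0.37, adjusted p = 0.018) and fell by 3.62 in LPS 3 d (SE 0.37, adjusted p = 1.58e-05), where it was 12.3-fold lower.

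Markers of other cells fell with *Egr2* in the 3 d groups. In LPS 3 d, 6 of 6 granule genes of neutrophils and 5 of 6 B-cell genes (such as *Cd79a*) were lower than in Control, against 16.1% of all tested genes. In RANKL 3 d 4 of 6 of each list were lower, against 9.04%. B-cell genes summed to 16.6 to 21.3 FPKM in Control, 5.31 to 8.41 in RANKL 3 d and 0.994 to 2.68 in LPS 3 d. Their part in the fall of *Egr2* at 3 d was not tested. In LPS 4 h, where *Egr2* was also lower, 0 of 6 granule genes and 1 of 6 B-cell genes (*Cd79b*) were called lower by limma, against 41% of all tested genes. An unadjusted p under 0.05 was found for 0 of 6 granule genes. The levels of both lists were lower there too, with B-cell genes summing to 12.3, 10.4 and 3.06 FPKM, every sample below every Control sample, and median log2 differences of -0.76 for the B-cell and -0.62 for the granule genes beside -0.52 over all genes tested. Their part in the fall of *Egr2* at 4 h was not tested.

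*Egr3* (chromosome 14, 70077203 to 70082614, plus strand), which shares its DNA site with the other EGR factors, went in opposite directions under the 2 stimuli at 3 d. Its FPKM was 0.359, 0.396 and 0.253 in Control, 0.949, 0.576 and 0.848 in RANKL 3 d, and 0.147, 0.0585 and 0.229 in LPS 3 d. Both 3 d groups stood clear of Control, one above and one below. In the 4 h groups its FPKM ran from 0.214 to 0.479 under RANKL and from 0.202 to 0.611 under LPS, overlapping Control. *Egr3* was 1.02 ± 0.37 higher on the log2 scale in RANKL 3 d (SE, adjusted p = 0.0502) and fell by 0.88 in LPS 3 d (SE 0.37, adjusted p = 0.0785), so neither change passed 0.05 after adjustment. The call in RANKL 3 d was lost without Control replicate 3 (log2 difference 0.88) or without RANKL 3 d replicate 1 (0.89), and the call in LPS 3 d without Control replicate 1 or 2 or LPS 3 d replicate 1 or 2, where the log2 difference lay between -0.92 and -0.60. Both calls were also lost when 1 rather than 0.1 was added to FPKM before the log.

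The osteoclast programme rose with *Egr1* and *Egr3* in RANKL 3 d. Of the 10 listed osteoclast genes 9 were higher than in Control, led by *Oscar*, an immunoglobulin-like co-stimulatory receptor (40.8 against 0.0615 FPKM), *Dcstamp*, needed for cell fusion (41.8 against 0.258), its relative *Ocstamp* (42.0 against 0.330) and *Ctsk*, the collagen-degrading protease (1060 against 24.0). Stromal genes were also higher there in 10 of 14 cases, where 20.2% of all tested genes were higher. The 3 RANKL 3 d samples differed in these sums, with 3168, 1721 and 5474 FPKM of osteoclast genes and 2147, 980 and 472 FPKM of stromal genes for replicates 1, 2 and 3. *Egr1* was highest in replicate 3, which had the most osteoclast and the least stromal signal, and *Egr3* was highest in replicate 1, which had the most stromal signal. *Egr1* stayed called against Control and against RANKL 4 h without RANKL 3 d replicate 3, but its excess over LPS 3 d did not (log2 difference 0.64, adjusted p = 0.115). The part of stromal cells in these changes was not tested.

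Among the NR4A genes *Nr4a1* and *Nr4a3* rose under LPS at 4 h, and *Nr4a2* was called in 0 of the 8 comparisons, with 0 also at an unadjusted p under 0.05 alone in limma and by limma voom. *Nr4a1* (chromosome 15, 101254269 to 101274795, plus strand), whose promoter is the first shown above, measured 1.23, 1.22 and 1.43 FPKM in Control, 14.0, 2.20 and 7.30 in LPS 4 h, and 1.42, 1.01 and 2.22 in LPS 3 d. All 3 LPS 4 h samples were above all Control samples, but replicate 2 was at 1.70 times the control mean and replicate 1 at 10.8 times. The log2 fold change in LPS 4 h was 2.16 ± 0.48 (SE, adjusted p = 0.00154), and 1.57 without LPS 4 h replicate 1 and 2.88 without replicate 2. Under RANKL 4 h *Nr4a1* measured 2.02, 1.79 and 1.89 FPKM, above every Control sample. The log2 difference of 0.52 (95% interval -0.50 to 1.54) was not called, with a fold of 1.43 and an unadjusted p of 0.293 in limma. The SD was 0.116 FPKM in RANKL 4 h and 0.118 in Control. The interval rests on the spread within all 5 groups, among them LPS 4 h with an SD of 5.94 FPKM. RANKL 3 d gave 1.43, 0.914 and 1.01 FPKM and overlapped Control.

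*Nr4a3* (chromosome 4, 48045153 to 48086447, plus strand) measured 0.900, 0.401 and 0.238 FPKM in Control and 5.02, 3.17 and 0.993 in LPS 4 h. The lowest LPS 4 h sample lay just above the highest Control sample. Its FPKM was 0.338, 0.324 and 0.102 in RANKL 4 h, 0.243, 0.394 and 0.102 in RANKL 3 d, and 0.253, 0.246 and 0.365 in LPS 3 d, and these 3 groups overlapped one another and Control. The log2 fold change in LPS 4 h was 2.25 ± 0.55 (SE, adjusted p = 0.00302), with 1.77 left without LPS 4 h replicate 1.

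*Nr4a2* (chromosome 2, 57106830 to 57124003, minus strand), known for its part in dopaminergic neurons and also inducible in macrophages, has as many TGACG cores in its window as the other 2. Its FPKM was 0.331, 0.438 and 0.259 in Control, 0.503, 0.411 and 0.278 in RANKL 4 h, and 0.397, 0.559 and 0.433 in LPS 4 h. At 3 d it was 0.318, 0.209 and 0.294 under RANKL and 0.390, 0.331 and 0.334 under LPS. Each group overlapped the next in the order of means, but RANKL 3 d lay wholly below LPS 4 h and LPS 3 d, and LPS 3 d wholly below LPS 4 h. The log2 difference between LPS 4 h and Control was 0.36 (95% interval -0.17 to 0.88), or 0.92 with samples centred on their median gene, where it was called (adjusted p = 0.00869).

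The IER genes were the most abundant of the 9 and differed in timing. *Ier2* (chromosome 8, 84661331 to 84662852, minus strand, 1 exon) measured 20.1, 15.3 and 18.5 FPKM in Control and 136, 56.7 and 42.5 in LPS 4 h, with every LPS 4 h sample above every Control sample. In the other groups it ran from 13.6 to 25.7 FPKM and overlapped Control. The log2 fold change in LPS 4 h was 1.94 ± 0.34 (SE, adjusted p = 0.000286), and 1.45 without LPS 4 h replicate 1.

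*Ier3* (chromosome 17, 35821684 to 35822923, plus strand) was, with *Egr1*, called higher than Control under LPS at both times. Its FPKM was 36.5, 28.7 and 23.0 in Control, 181, 86.8 and 88.5 in LPS 4 h, and 94.4, 112 and 98.7 in LPS 3 d. Every LPS sample lay above every Control sample, and the LPS 4 h and LPS 3 d groups overlapped. The log2 fold changes were 1.95 ± 0.29 in LPS 4 h (SE, adjusted p = 8.04e-05) and 1.81 ± 0.29 in LPS 3 d (adjusted p = 0.000416). RANKL 3 d gave 36.0, 27.3 and 28.8 FPKM, within the Control range. Under RANKL 4 h it measured 25.5, 14.3 and 12.5 FPKM and fell by 0.79 on the log2 scale (SE 0.29, adjusted p = 0.724), with replicate 1 overlapping Control, and the call was lost without Control replicate 1, RANKL 4 h replicate 2 or RANKL 4 h replicate 3, where the log2 difference was -0.63, -0.69 and -0.59.

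*Ier5* (chromosome 1, 155096361 to 155099636, minus strand, 1 exon) was the steadiest IER gene. Its FPKM was 47.0, 40.7 and 42.9 in Control, 49.3, 46.3 and 36.8 in RANKL 4 h, 67.2, 40.7 and 46.4 in LPS 4 h, and 52.5, 43.6 and 30.3 in LPS 3 d, all overlapping. In RANKL 3 d it was 22.4, 24.8 and 21.3, below every other sample. It fell by 0.93 on the log2 scale there (SE 0.20, adjusted p = 0.00427). GENCODE M21 annotates no other gene overlapping any of the 9 loci, and the positions given are those of that annotation on GRCm38, which need not be the annotation behind the deposited values.

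LPS 4 h replicate 1 had the highest FPKM of its group for 8 of the 9 genes, where it was the highest for 38.6% of all tested genes. For *Egr1* the 3 samples had a coefficient of variation of 4.82% against 75.7% for *Nr4a1*, 65.9% for *Nr4a3*, 64.4% for *Ier2* and 45.6% for *Ier3*. RANKL 4 h replicate 1 was likewise the highest of its group for 8 of the 9 genes, against 37.1% of tested genes. The listed LPS-response genes summed to 17085, 15438 and 15781 FPKM in LPS 4 h replicates 1, 2 and 3. Without LPS 4 h replicate 1 the same 6 genes stayed called in LPS 4 h against Control.

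**Figure D3:**
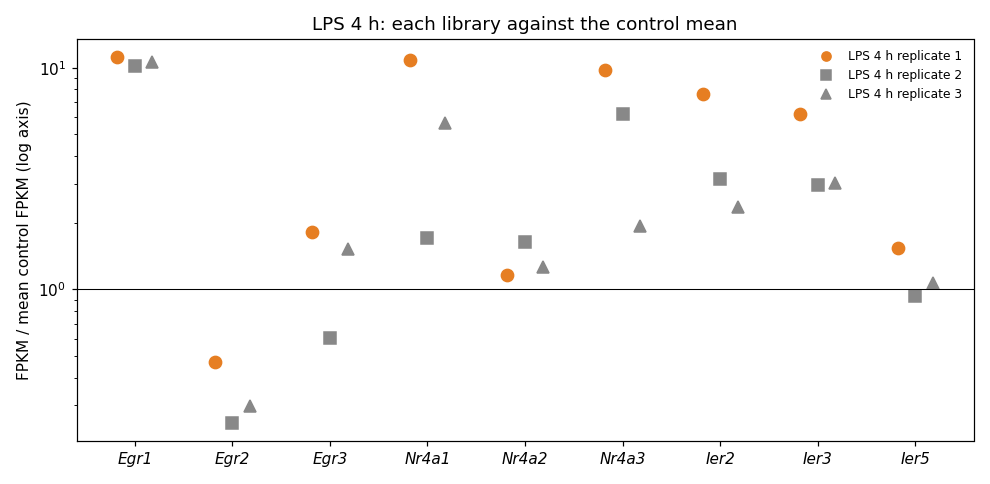
FPKM of each gene in each LPS 4 h library divided by its mean in the 3 Control samples (y axis, log scale), with orange circles for replicate 1 and grey squares and triangles for replicates 2 and 3. The 3 symbols coincide for *Egr1* at 10.1 to 11.2 times the control mean and spread from 1.70 to 10.8 times for *Nr4a1*.

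The next comparisons set RANKL against LPS at the same time. At 4 h 1 of the 9 genes, *Egr2*, was higher under RANKL, against 42.5% of all tested genes, and 5 were lower, against 9.31%. The 5 were *Egr1* (log2 difference -3.41), *Nr4a3* (-2.98), *Ier3* (-2.74), *Ier2* (-1.99) and *Nr4a1* (-1.64). The median tested gene was 0.53 higher under RANKL, and centred on it 14.7% of tested genes were higher and 17.6% lower, and *Nr4a2* and *Ier5* were also called lower.

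At 3 d 3 genes were higher under RANKL than under LPS, against 25.1% of all tested genes, and 2 were lower, against 13.8%. All 3 EGR genes were in the first set, *Egr2* by 2.35 (adjusted p = 0.000167), *Egr3* by 1.90 (adjusted p = 0.000911) and *Egr1* by 0.87 (adjusted p = 0.0258) on the log2 scale. *Ier3* (log2 difference -1.73) and *Ier5* (-0.85) were lower. Of the marker lists, 10 of 10 osteoclast genes, 9 of 14 stromal genes and 4 of 6 granule genes of neutrophils were also higher under RANKL, and 1 stromal gene was lower, and the part of the other cells in these differences was not tested. Centred on the median gene, which was 0.11 higher under RANKL, 20.7% of tested genes were higher and 18.3% lower.

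Whether the RANKL-LPS difference itself changed between 4 h and 3 d was tested as an interaction, a test chosen after the values were seen. It passed an adjusted p of 0.05 in the upward direction for 4 of the 9 genes, against 16% of all tested genes, and in the downward direction for 0, against 35.9%, where limma gave an unadjusted p under 0.05 for 1 gene, *Ier5*, and limma voom passed 0. *Egr1* changed most, from -3.41 at 4 h to 0.87 at 3 d, a change of 4.29 ± 0.41 (SE, adjusted p = 4.66e-06). *Nr4a3* (2.73, adjusted p = 0.00923) and *Ier2* (2.10, adjusted p = 0.00254) moved from well below to near 0, and *Egr3* (2.08, adjusted p = 0.00449) from near 0 to above it. The median over tested genes was -0.33. For *Ier3* (1.01, adjusted p = 0.0538) and *Ier5* (-0.65, adjusted p = 0.0741) the test did not pass, but with the replicate number as a block it did (adjusted p = 0.0105 and 0.0285).

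**Figure D4:**
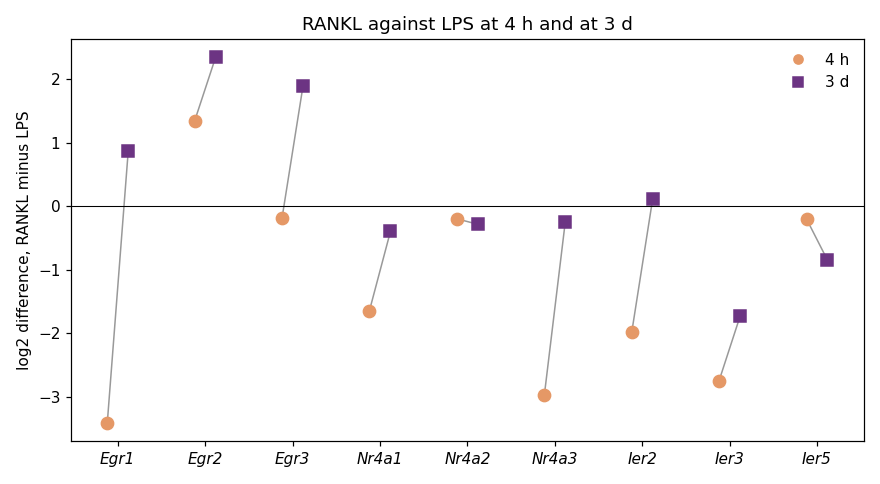
Difference between RANKL and LPS in log2(FPKM + 0.1) for each gene (y axis) at 4 h (circles) and 3 d (squares), joined by a line. *Egr1*, *Egr3* and *Ier2* cross 0, with *Egr1* moving from -3.41 at 4 h to 0.87 at 3 d. *Egr2* stays above 0 at both times, and *Ier3*, *Ier5* and the NR4A genes stay below it.

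The last comparisons follow each stimulus from 4 h to 3 d. Under RANKL 3 genes were higher at 3 d than at 4 h, against 20.1% of all tested genes, and 2 were lower, against 8.24%. *Egr1* was higher by 2.22, *Egr3* by 0.96 (adjusted p = 0.0644) and *Ier3* by 0.87 (adjusted p = 0.0383) on the log2 scale. *Egr2* (adjusted p = 0.0251) and *Ier5* (log2 difference -0.94) were lower. Stromal genes were higher at 3 d in 9 of 14 cases, and granule genes of neutrophils were lower in 4 of 6 and B-cell genes in 3 of 6, and their part was not tested. Centred on the median gene, 12.4% of tested genes were higher and 13.6% lower, and *Egr3* and *Ier3* were no longer called. Without RANKL 4 h replicate 3 the same 2 genes were lost and 3 calls remained. *Egr3* was also lost without RANKL 3 d replicate 1 or 3, or when 1 was added to FPKM before the log.

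Under LPS 6 of the 9 genes were lower at 3 d than at 4 h, against 14.3% of all tested genes, and 0 were higher, against 45%, with no log2 difference above 0 in limma or limma voom. The log2 differences were -2.78 for *Nr4a3*, -2.20 for *Egr2*, -2.07 for *Egr1*, -1.98 for *Nr4a1*, -1.92 for *Ier2* and -1.12 for *Egr3*. The groups overlapped for *Nr4a1* and *Egr3*. The call of *Egr3* was lost without LPS 3 d replicate 2, or when 1 was added to FPKM before the log. In the same comparison 6 of 6 granule genes of neutrophils (median log2 difference -6.48) and 5 of 6 B-cell genes (median -2.23) were lower, and their part was not tested. *Ier3* was not called (log2 difference -0.14, 95% interval -0.77 to 0.49). The median tested gene was 0.52 higher at 3 d, and centred on it 19.5% of tested genes were higher and 28.6% lower, and all 9 genes were called lower.

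Other immediate-early genes, a list of 30 of which 29 were tested, moved both ways at LPS 4 h against Control. Of the 29, 14 were higher, against 8.75% of all tested genes, and 6 were lower, against 41%. Their median log2 difference was 0.31 beside -0.52 over all genes tested. The largest rises were of *Nfkbiz*, a nuclear regulator of NF-kappaB targets (173 against 4.32 FPKM), *Dusp2*, a phosphatase of MAP kinases (118 against 2.99), *Gem*, a small GTPase (20.8 against 0.921) and *Maff*, a small MAF factor (24.2 against 1.30). *Fos* and *Jun*, named here after their values were seen, were lower, with 11.7 ± 2.65 against 32.3 ± 4.49 FPKM (SD) and 19.7 ± 2.92 against 57.3 ± 8.84 FPKM. RANKL 4 h had 4 higher, against 1.21% of all tested genes, and 0 lower, against 1.35%. *Sgk1*, a serine/threonine kinase (79.8 against 30.8 FPKM), led, and none of the 4 passed an adjusted p of 0.05 in limma. In RANKL 3 d 9 were higher, against 20.2% of all tested genes, and 4 lower, against 9.04%. *Fosl2*, an AP-1 subunit, rose there from 6.99 to 50.2 FPKM. In LPS 3 d 10 were higher, against 14.9%, and 4 lower, against 16.1%, and *Myc* fell from 20.6 to 4.72 FPKM.

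Genes known to act upstream of immediate-early promoters, 18 in all, were lower in 6 cases and higher in 0 in LPS 4 h by limma (10 and 2 at an unadjusted p under 0.05 alone), where 41% of all tested genes were lower, with a median log2 difference of -0.42, near that of all genes. *Mef2c* (1.30 against 5.81 FPKM) and *Mef2d* (7.42 against 18.0), MADS-box factors related to SRF, *Mkl1* (7.05 against 17.9), an SRF coactivator, and *Rps6ka1* (20.6 against 48.9), a kinase downstream of ERK, had the largest falls. In RANKL 3 d 2 were higher, *Mef2c* (10.8 FPKM) and the ETS factor *Elk3* (25.0 against 16.5), against 20.2% of all tested genes. None was lower, against 9.04%, with 1 lower at an unadjusted p under 0.05 alone in limma. LPS 3 d had 6 higher, against 14.9%, and 1 lower, against 16.1%, with *Crem*, the CREB relative, at 3.58 against 1.24 FPKM.

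Of 9 partner and feedback genes, 5 were lower and 1 higher in LPS 4 h, where 41% of all tested genes were lower and 8.75% higher. *Rxra* (4.52 against 26.7 FPKM) and *Rxrb* (6.24 against 14.4), the retinoid X receptors with which *Nr4a1* and *Nr4a2* can pair, were among the lower, and *Cdkn1a*, the cell-cycle inhibitor, was the higher (609 against 333). RANKL 3 d had *Rxrb* higher (22.8 FPKM), against 20.2% of all tested genes, and *Rxra* (13.3) and *Cdkn1a* (124) lower, against 9.04%. RANKL 4 h had 1 higher, against 1.21%, which was *Id2*, an inhibitor of bHLH factors (314 against 91.7 FPKM, adjusted p = 0.086). In LPS 3 d 2 were higher, against 14.9%, among them *Nab1*, a corepressor of EGR factors (27.0 against 17.7 FPKM).

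Across the 15 samples the 9 genes did not follow a single pattern. The highest Pearson correlations of log2(FPKM + 0.1) between members were 0.869 for *Nr4a3* and *Ier2* and 0.841 for *Nr4a1* and *Ier2*, and the lowest was -0.719 for *Egr2* and *Ier3*. Within the EGR family the 3 values ran from -0.406 for *Egr1* and *Egr2* to 0.38 for *Egr2* and *Egr3*, and within the NR4A family from 0.408 to 0.705. Among 9486 genes of at least 1 FPKM, those most like *Egr1* were *Src* (0.984), *Traf1* (0.966) and *Lif* (0.965), those most like *Egr2* were *Cdc25a* (0.941), *LOC108167725* (0.94) and *Hmgn2* (0.932), and those most like *Egr3* were *Rps9* (0.886), *Slc45a3* (0.881) and *Itgb3* (0.867). *Nr4a1* was nearest to *Ccdc88b* (0.871), *Ccl20* (0.851) and *Alas1* (0.849), *Nr4a2* to *Frmd4a* (0.787), *Rhog* (0.764) and *Cdkn1a* (0.76), and *Nr4a3* to *C130026I21Rik* (0.942), *Cish* (0.939) and *Fam26f* (0.935). *Ier2* was nearest to *Jund* (0.941), *Traf5* (0.926) and *Cish* (0.913), *Ier3* to *Nfil3* (0.969), *Phlda1* (0.958) and *Cd80* (0.937), and *Ier5* to *Gtpbp6* (0.914), *Scimp* (0.906) and *Coq10b* (0.901). These values describe 15 samples that share 5 conditions, and samples with the same replicate number in several groups deviated together.

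**Figure D5:**
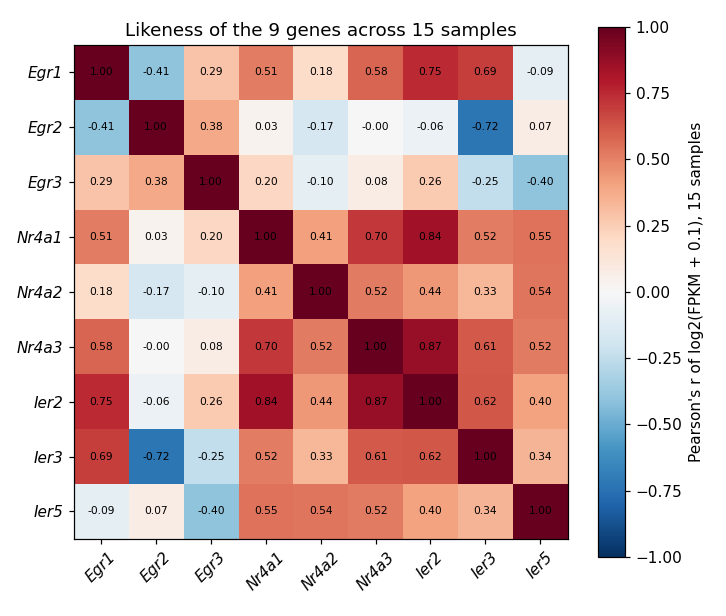
Pearson's r between each pair of the 9 genes over the 15 samples, on log2(FPKM + 0.1), as colour and number. The blocks of high values join *Nr4a1*, *Nr4a3* and *Ier2* (0.705 to 0.869), and *Egr2* has its lowest value, -0.719, with *Ier3*.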

How the data were processed

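BMDMs were profiled by RNA-seq in 15 samples, 5 groups of 3 assigned from the labels. The authors deposited FPKM per gene and sample, calculated with StringTie and Ballgown; the submitters' processing notes name the GRCm38.p4 (mm10) build, and the aligner and annotation are not given in the sources used here. Genes after *Tti2* in alphabetical order were not analysed here. For each of the 14485 genes detected in 3 or more samples, a multiplier was sought that made its FPKM values whole (within 0.01). It was found for every gene, but the search required that closeness, so the closeness does not test the recovered fragments. These summed to 18306184 to 20330207 per sample, and for a single gene they may exceed the true number. Fragments may repeat a molecule, so precision estimated from them covers counting error only.

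After a log2(FPKM + 0.1) transformation, group means were compared by moderated linear models (limma 3.58.1 in R 4.3.3, with a mean-variance trend) over 11743 genes averaging at least 0.1 FPKM, in 1 fit of the 5 groups. The fold and p thresholds follow the authors' methods, where edgeR was used. The fit was tested on simulated data with independent replicates, less spread than several members had, and changes planted only in genes with many fragments. That test therefore does not cover the variable or low members. Members and lists were chosen with earlier results of these data known; named list genes are up to 4 called genes per list and comparison with the largest log2 difference, and likeness partners the 3 highest correlations. Same-numbered samples deviated together (every correlation over 0.1, over 9486 genes) between Control, RANKL 4 h, RANKL 3 d and LPS 4 h but not with LPS 3 d, so the replicate number was used as a block in an alternative. Other alternatives were the pseudocount (1 or 0.01), the low-value filter (none or 1 FPKM), scaling, groups fitted, trend, adjusted p, limma voom on recovered fragments and leaving out each replicate. Gene positions came from GENCODE M21. Other calculations used Python 3.11.15, numpy 2.4.6, pandas 2.3.3, scipy 1.17.1 and matplotlib 3.10.9.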

Additional observations from a re-analysis of the deposited data

Results flagged for a closer look

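For 4 genes the difference between RANKL and LPS was not the same at 4 h and at 3 d, by the interaction test in limma over all tested genes. The change for *Egr1* was 4.29 log2 units (adjusted p = 4.66e-06), with means moving from 1.14 ± 0.52 FPKM under RANKL against 12.4 ± 0.60 under LPS (SD, n = 3) at 4 h to 5.53 ± 1.68 against 2.89 ± 0.29 at 3 d. *Nr4a3* changed by 2.73 (adjusted p = 0.00923), *Ier2* by 2.10 (adjusted p = 0.00254) and *Egr3* by 2.08 (adjusted p = 0.00449). For *Egr1*, *Egr3* and *Ier2* the test passed under all alternatives that gave a value, and for *Nr4a3* under 22 of 23, missing it with limma voom on the recovered fragments (adjusted p = 0.0658).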

How the results depend on the processing

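Of the 72 pairs of a gene and a comparison, 37 were called, and 30 of these were called under every alternative that gave a value. No called value changed sign. The other 7 were 4 calls of *Egr3*, 2 of *Ier3* and 1 of *Egr1*. For RANKL 4 h against Control the count of 1 gene became 0 with the adjusted p, and ranged from 0 to 1 when single replicates were left out. For RANKL 3 d against RANKL 4 h the count of 5 ranged from 3 to 6 when single replicates were left out. The number of genes whose RANKL-LPS difference changed with time, 4 in the report, became 2 with a minimum mean of 1 FPKM, which removed *Egr3*, *Nr4a2* and *Nr4a3*, and was 4 to 6 when single replicates were left out. It was 6 with the replicate block, which changed none of the 72 calls. In LPS 4 h against Control *Egr1* kept a log2 difference of 3.36 with the replicate block (adjusted p = 9.4e-07). Centring on the median gene lost 3 calls and gained 8. The cause of these changes was not tested, other than for the filter. At 5 to 25 recovered fragments per sample, as for *Egr2* and *Egr3* in LPS 3 d, depth limits the precision.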
